A study of Mus musculus with 4 samples.

Results

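The genes described here are the chemokines Ccl3, Ccl4, Ccl5 and Xcl1 and the receptors Ccr1 and Xcr1, 6 of the 31053 genes in the count tables. They were taken by name, and their unique molecular identifiers (UMIs, counted transcript molecules) were read in every cell class of all 4 single-cell libraries, 27531 cells in all. The libraries are droplet 3′ RNA libraries of mouse back skin, all on the BALB/c background. One library pooled 3 Cd226-/- mice and another pooled 3 wild-type (WT) mice. Both had received 25 µg of DMBA, a carcinogen, and from 1 week later 5 µg of the tumour promoter TPA once weekly for 3 applications. Cells were isolated 3 weeks after treatment, and CD45+ cells (leukocytes) and CD45- cells were sorted and mixed in equal shares. The other libraries, naive CD45+ and naive CD45-, hold sorted cells of skin labelled naive; each pools WT and Cd226-/- cells, and the genotype of a naive cell is not known. Cd226 encodes DNAM-1, an activating receptor of NK and T lymphocytes.

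Ccl3, Ccl4 and Ccl5 are inflammatory CC chemokines, which act on G protein-coupled receptors, and Ccl3 and Ccl5 bind CCR1. Phagocytes release Ccl3 and Ccl4 after innate stimuli, whereas Ccl5 is known as a late product of activated T and NK lymphocytes. Xcl1, also called lymphotactin, is made by NK cells and T lymphocytes and binds XCR1, which among leukocytes is known from the cross-presenting type 1 dendritic cell. In tumours this pair is known to bring NK cells and type 1 dendritic cells together.

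The 3 CC ligand genes lie close together on mouse chromosome 11 (GRCm38, GENCODE vM21). Ccl5 occupies chr11:83525778-83530518 on the minus strand. Ccl3 follows at chr11:83647844-83649355, also on the minus strand, and Ccl4 at chr11:83662584-83664683 on the plus strand, 13228 bases beyond Ccl3. The receptor genes share a stretch of chromosome 9, with Xcr1 at chr9:123852315-123862029 and Ccr1 at chr9:123962124-123968692, 100094 bases apart and both on the minus strand. Xcl1 stands alone at chr1:164931644-164935527 on the minus strand. RefSeq promoter windows of 250 bases before the RefSeq start (GRCm38.p6) were at hand for 4 of the 6 members. For Ccl3 and Xcl1 this start differs from that of the GENCODE positions above, and distances below are counted from the RefSeq start. Those of Ccl3, the phagocyte ligand among these 4, and of Xcl1, the lymphocyte ligand, are printed 5′ to 3′ because the results turn on the contrast between these sources. Capitals mark matches to TATAA or TGTGGT (a RUNX motif) or to their reverse complements TTATA and ACCACA.
Ccl3: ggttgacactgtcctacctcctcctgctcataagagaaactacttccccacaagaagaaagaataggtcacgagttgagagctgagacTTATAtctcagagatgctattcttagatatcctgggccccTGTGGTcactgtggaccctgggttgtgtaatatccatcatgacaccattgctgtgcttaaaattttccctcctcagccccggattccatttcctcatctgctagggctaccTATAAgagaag
Xcl1: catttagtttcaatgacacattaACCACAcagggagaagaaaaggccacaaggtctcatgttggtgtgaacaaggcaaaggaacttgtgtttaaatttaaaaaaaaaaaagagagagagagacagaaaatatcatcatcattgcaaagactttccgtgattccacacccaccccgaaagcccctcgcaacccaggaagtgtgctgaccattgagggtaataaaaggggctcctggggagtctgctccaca
The Ccl3 window, chr11:83649379-83649628, holds a TATAA whose first base lies 11 bases before the start. It also holds TTATA 162 bases and TGTGGT 122 bases before the start. The Xcl1 window, chr1:164935523-164935772, holds a single match, ACCACA, 227 bases before the start. Searched on both strands, neither window holds the NF-kB motif, TGANTCA (AP-1), TTGCNNAA (C/EBP) or AGGTGTGA (T-box). Among the 32851 windows of the same length, 22.8% hold the TATA letters, 14.1% the RUNX letters, 1.41% those of the NF-kB motif, 6.75% of AP-1, 9.56% of C/EBP and 1.12% of T-box. The TATA and RUNX letters were searched after the first 4 motifs gave no match.

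The Cd226-/- library held 7991 barcodes and 71245703 gene UMIs, the WT library 8527 and 72606822, naive CD45+ 5913 and 42043869 and naive CD45- 11875 and 81406730. After filters 6521, 7042, 3370 and 10598 cells were kept in that order, with median depths between 6555.5 and 9070 UMIs. Any pair of libraries shared between 6 and 18 cell barcodes, at most 0.415% of the smaller library. The antibody tag for DNAM-1 had a median of 2 counts per lymphoid cell in the Cd226-/- library and 41 in the WT library, against 10 in naive CD45+, where genotypes are mixed. Fibroblast-like cells, which held at most 3 Cd226 UMIs in a library, had tag medians of 2, 16 and 10 in the same libraries and 106 in naive CD45-, so the background of the tag differs between libraries as well. Cd226 transcripts did not check the label, because 3′ tags were still counted in Cd226-/- lymphoid cells, at 38 UMIs against 75 in WT. Immune cells numbered 3259 in the Cd226-/- library, 1918 in WT, 3210 in naive CD45+ and 109 in naive CD45-. Cells were clustered without the members and the other genes of the ligand and receptor lists used below. Other chemokine and chemokine receptor genes, such as Cxcl2, Ccl22 and Ccr7, were not left out. A class name below means that its clusters resemble that type by marker genes, which include Ccl22, Ccr7, Ccr2 and Cxcr2. Clusters with mixed markers stayed unnamed, as did cycling, Il13-high and Siglech-high cells, and all of these hold 16.8%, 20.2% and 5.86% of immune cells in the Cd226-/-, WT and naive CD45+ libraries. The NK-like class is not free of T cell transcripts: all 8 listed T lymphocyte markers were seen there, at 1661, 2507 and 2955 UMIs per 1000000 UMIs of the class (CPM) in the Cd226-/-, WT and naive CD45+ libraries. Each group is a single library, so no difference below has a test. Intervals are exact 95% counting intervals and cover counting error only, and the spread between pools of mice is not known. A ratio was called when it passed 1.5-fold with at least 50 UMIs of the gene over both libraries and at least 50 cells in each.

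Ccl3 was foremost a transcript of neutrophil-like cells. Its level there was 19126 CPM (18848 to 19406) in the Cd226-/- library, 20376 (20026 to 20731) in WT and 6177 (6056 to 6299.9) in naive CD45+. In each of these libraries no other named class of at least 50 cells came near this level. The next were the monocyte-like cells, with 868, 863 and 899.8 CPM in the Cd226-/-, WT and naive CD45+ libraries. Type 2 dendritic-like cells held 843, 603 and 641, macrophage-like cells 623, 671 and 439, and type 1 dendritic-like cells 541, 585 and 21.2. The 82 melanocyte-like cells of WT skin held 776, of which 43.7% came from 1 cell. The orders among these 4 classes within a treated library are close, and several of their counting intervals overlap. Langerhans-like cells held 218 CPM in Cd226-/- skin and 307 in WT skin. In naive CD45- skin, where macrophage-like cells are the only immune class of size, Ccl3 stood at 97.5 CPM in 85 of them.

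Lymphoid sources of Ccl3 were smaller and uneven. CD8 T-like cells held 288 CPM in Cd226-/- skin and 729 in WT skin, and a single cell carried 49.0% and 50.9% of those UMIs. In NK-like cells the gene was seen in 8 of 26 cells (884 CPM) in Cd226-/- skin, in 3 of 26 (57.9) in WT and in 15 of 34 (1007) in naive CD45+. Gamma-delta T-like cells were near the fibroblast level, with at most 13.1 CPM in any library. In the mast or basophil-like class, the few cells with a transcript of Mcpt8, a protease gene of basophils, had the highest level of all. Ccl3 made up 48128 CPM in 6 such cells of the Cd226-/- library and 23506 in 4 of the WT library, while the 1 naive CD45+ cell had none. The 41 Cd226-/- cells of that class without Mcpt8 held 3236 CPM, above the monocyte-like level.

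Shares of cells tell the same order once depth is set equal. Ccl3 was seen in 90.7% of neutrophil-like cells in the Cd226-/- library, 97.3% in WT and 75% in naive CD45+. After thinning each cell to 1000 UMIs they were 87.6%, 95.5% and 62.8%. Fibroblast-like cells, which are no known Ccl3 source and are taken as the background, showed it in 7.42%, 3.75% and 8.51% of cells. After thinning these shares were 0.960%, 0.436% and 1.41%. Whether this background is free RNA or mixed cells was not tested. Median depths were 2889, 3057.5 and 2844 UMIs in neutrophil-like cells and 12623, 10154 and 15469 in fibroblast-like cells. The fibroblast-like Ccl3 level itself was 16 CPM in Cd226-/- skin and 4.87 in WT skin, a ratio of 3.28, or 1.12 when called doublets were kept.

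Neutrophil-like cells were 7.92%, 7.82% and 16.1% of immune cells in the Cd226-/-, WT and naive CD45+ libraries, yet they held 45.5%, 52.2% and 40.9% of the immune Ccl3 UMIs. Within them the load was skewed. The median cell had 160.3 Ccl3 UMIs per 10000 in Cd226-/- skin, 176.0 in WT and 15 in naive CD45+, and the highest cell had 815, 891 and 722. The naive cells therefore reached close to the treated maximum, but the 10% of cells richest in Ccl3 held 61.1% of the UMIs there, against 33.6% in Cd226-/- and 27.8% in WT skin.

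**Figure D1:**
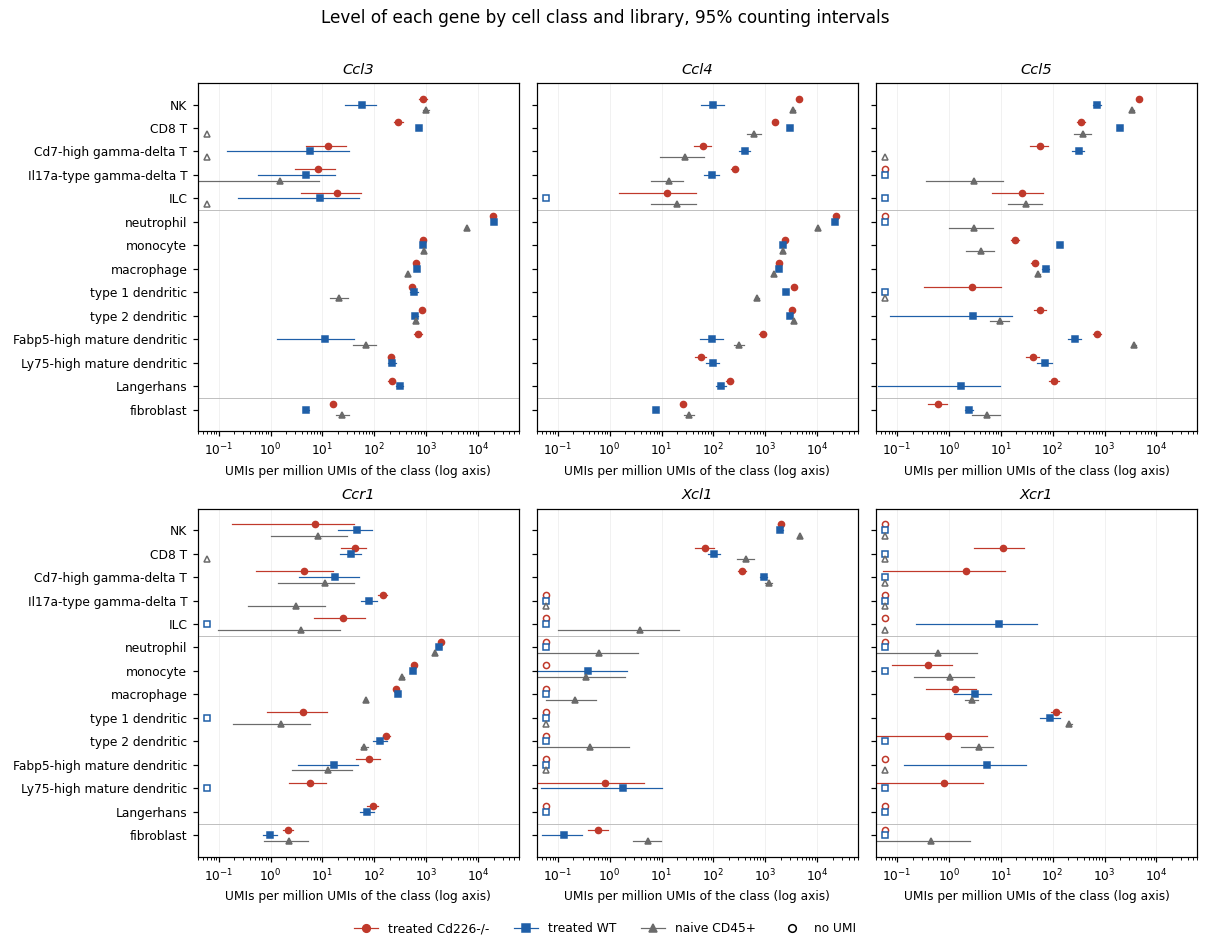
Level of each member (CPM, log axis) by cell class and library, with 95% counting intervals; open symbols mark classes with no UMI. Among the classes plotted, Ccl3 and Ccl4 are highest in neutrophil-like cells, Xcl1 lies in NK-like, CD8 T-like and Cd7-high gamma-delta T-like cells, and Xcr1 in type 1 dendritic-like cells.

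Ccl4 was spread more widely than Ccl3. Among classes of at least 50 cells, neutrophil-like cells again led, with 23208 CPM (22902 to 23516) in the Cd226-/- library, 22250.2 (21884 to 22621) in WT and 10554 (10396 to 10714) in naive CD45+. Type 1 dendritic-like cells held 3539.5 CPM in Cd226-/- skin and 2501 in WT skin, against 701 in naive CD45+. Type 2 dendritic-like cells held 3274, 2922 and 3489, monocyte-like cells 2385, 2207 and 2189, and macrophage-like cells 1858, 1854 and 1452. Within each of those 3 classes these libraries differed by less than 1.5-fold, whereas the 85 macrophage-like cells of naive CD45- skin held 268. The cells with a Mcpt8 transcript were again higher than any class, at 66217 CPM in 6 cells of Cd226-/- and 38419 in 4 cells of WT skin. The 1 naive CD45+ cell had none. The 41 Cd226-/- cells of the mast or basophil-like class without Mcpt8 held 7412.5 CPM. Langerhans-like cells had little, at 206 CPM in Cd226-/- skin and 142 in WT skin.

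Lymphocytes gave a larger part of Ccl4 than of Ccl3. CD8 T-like cells held 1546 CPM with Ccl4 in 27 of 98 cells in Cd226-/- skin, and 2980.4 with Ccl4 in 58 of 117 cells in WT skin. NK-like cells held 4533 CPM in 11 of 26 cells of Cd226-/- skin, where 1 cell carried 52.5%, against 98.4 in 4 of 26 cells of WT skin and 3412 in 18 of 34 naive cells. With 26 cells in each treated library, and a ratio that rests on so few of them, these NK-like levels are given side by side only. Set by marker transcripts, NK-like cells held 4798, 2519 and 4205 CPM of Ccl4, and 1051, 930 and 1317 of Ccl3, in the same 3 libraries. Ccl4 in Il17a-type gamma-delta T-like cells was 256 CPM in Cd226-/- skin and 91.9 in WT skin, but 71.8% and 86.8% of that came from 1 cell. The fibroblast background was 26.2, 7.73 and 34.0 CPM in the Cd226-/-, WT and naive CD45+ libraries.

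The balance of the neighbouring genes Ccl4 and Ccl3 differed by class. Because 3′ tags count 1 end per transcript, the ratio of their UMIs does not depend on gene length, though capture may differ between the 2 genes. Neutrophil-like cells had 1.21 Ccl4 UMIs per Ccl3 UMI (1.19 to 1.24) in Cd226-/- skin, 1.09 (1.07 to 1.12) in WT and 1.71 (1.67 to 1.75) in naive CD45+. Monocyte-like cells had 2.75, 2.56 and 2.43, and macrophage-like cells 2.98, 2.76 and 3.31. Type 1 dendritic-like cells were further toward Ccl4, with 6.55 (5.88 to 7.31) in Cd226-/- and 4.27 (3.54 to 5.19) in WT skin. In naive CD45+ the value was 33.0 (22.6 to 50.4), but it rests on 27 Ccl3 UMIs, most of them in 1 cell. In WT 3 cells held 74.8% of the Ccl3 UMIs of this class. Langerhans-like cells had 0.947 (0.758 to 1.18) in Cd226-/- skin, an interval that holds 1, and 0.463 (0.352 to 0.605) in WT. Their clusters were unlike each other: dc 7, with 5 Langerhans markers among its leading genes, had 2.26 (1.53 to 3.41) in Cd226-/- and 0.815 (0.593 to 1.12) in WT skin, and dc 0, whose leading genes also include mature dendritic markers, had 0.565 and 0.0824. Ly75-high mature dendritic-like cells had more Ccl3 than Ccl4, with 0.276 (0.208 to 0.360) in Cd226-/- and 0.445 (0.316 to 0.621) in WT skin. The WT interval overlaps that of Langerhans-like cells. In Cd226-/- skin 14 of 133 Ly75-high cells held 85.4% of the Ccl3 UMIs, and in WT skin 7 of 65 held 79.8%. All neutrophil-like, monocyte-like and macrophage-like ratios lie above 1 and below those of type 2 dendritic-like cells (3.89, 4.85 and 5.44) in the same library. The fibroblast-like background ratio of 1.64, 1.59 and 1.40 lies between the neutrophil-like and the monocyte-like ratio in both treated libraries. Ccl3 and Ccl4 were often in the same neutrophil-like cell: 197 of 258 cells held both in Cd226-/- skin, 129 of 150 in WT and 300 of 517 in naive CD45+.

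**Figure D2:**
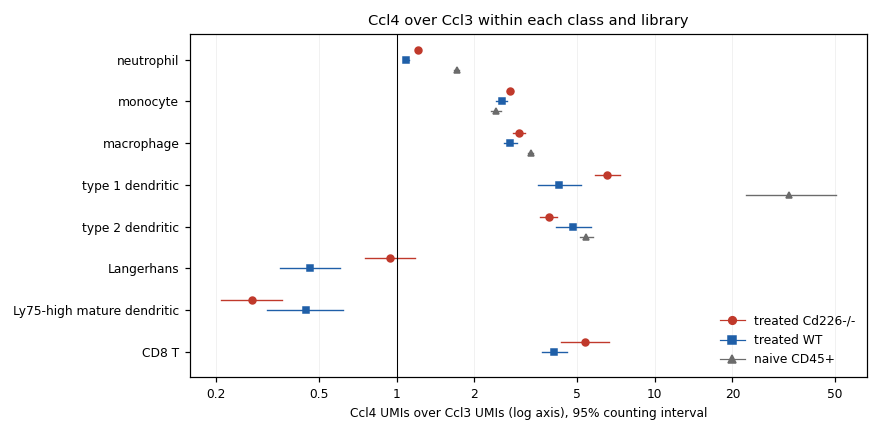
Ratio of Ccl4 UMIs to Ccl3 UMIs (log axis) within each cell class, by library, with 95% counting intervals; the line marks 1. Neutrophil-like cells lie close to 1 and Ly75-high mature dendritic-like cells below 1. Type 1 dendritic-like cells of naive CD45+ skin lie at 33.0, a value that rests on 27 Ccl3 UMIs. Langerhans-like cells lie at 0.947 in Cd226-/- and 0.463 in WT skin, the first with an interval that holds 1.

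By clusters, Ccl5 was highest in NK-like cells of Cd226-/- skin, in CD8 T-like cells of WT skin and in Fabp5-high mature dendritic-like cells of naive CD45+ skin. NK-like cells held 4554 CPM (4208 to 4921) in 14 of 26 cells of the Cd226-/- library, 729 (608 to 869) in 7 of 26 cells of WT and 3450.0 (3218 to 3694) in 15 of 34 naive cells. CD8 T-like cells held 360.3 CPM (301 to 428) in 14 of 98 cells of Cd226-/- skin, 2025 (1908 to 2147) in 40 of 117 cells of WT skin and 383 (258 to 547) in 6 of 15 naive cells. The order of these classes thus differs between the treated libraries: NK-like cells were above CD8 T-like cells in Cd226-/- skin, and below them in WT skin. Classes set by marker transcripts kept the Cd226-/- order but not the WT one. NK-like cells then held 2535 CPM in 22 cells of Cd226-/-, 2309 in 12 of WT and 2516 in 25 of naive CD45+ skin. The WT value was that of its CD8 T-like cells (2311), whereas the Cd226-/- value stood above its CD8 T-like level by marker transcripts, given below. Fabp5-high mature dendritic-like cells had 718 CPM in Cd226-/- skin and 265 in WT, against 3712 in 15 of 19 naive cells. These are small classes of 29, 24 and 19 cells. Of the immune Ccl5 UMIs, NK-like cells held 31.4%, 3.84% and 27.4% in the Cd226-/-, WT and naive CD45+ libraries and CD8 T-like cells 6.39%, 34.3% and 0.998%. Macrophage-like cells, low in level but many, held 6.73%, 5.03% and 32.8%, and the unnamed mixed lymphoid clusters 16.1%, 24.2% and 0.0333%.

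Other phagocytes held little Ccl5. No UMI was counted in 258 Cd226-/- and 150 WT neutrophil-like cells, which allows up to 3.16 and 4.74 CPM, and naive CD45+ neutrophil-like cells had 3.11. Monocyte-like cells held 19.1 CPM in Cd226-/- skin, 139 in WT and 4.17 in naive CD45+. Macrophage-like cells held 45.0, 74.8 and 53.3. None of the 23, 21 and 5 monocyte-like cells with Ccl5, nor of the 22, 22 and 85 macrophage-like cells with it, held 2 or more of the 8 T lymphocyte markers. Il17a-type gamma-delta T-like cells had no Ccl5 UMI in either treated library, which allows up to 4.08 CPM in Cd226-/- and 7.26 in WT skin. The fibroblast background was 0.628, 2.44 and 5.51 CPM, in 0.514%, 0.843% and 1.42% of cells. In CD8 T-like cells Ccl5 was seen in 14.3%, 34.2% and 40% of cells, or 9.96%, 26% and 21.8% thinned to 1000 UMIs, at median depths of 3193, 3849 and 5300 UMIs. Those thinned shares exceed the thinned fibroblast shares of 0.0641%, 0.141% and 0.320%.

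Xcl1 was the most restricted ligand. NK-like cells had 1974 CPM (1748 to 2221) in 23 of 26 cells of the Cd226-/- library, 1951 (1748 to 2171) in 17 of 26 cells of WT and 4642 (4372 to 4924) in 33 of 34 cells of naive CD45+. The 2 NK-like cells of naive CD45- skin held 4727. Set by marker transcripts, the NK-like cells held 1246, 1739 and 1753 CPM in Cd226-/-, WT and naive CD45+ skin, so the naive level then stood close to that of WT. Cd7-high gamma-delta T-like cells came next, with 355 CPM (303 to 414) in 34 of 119 cells of Cd226-/- skin, 931 (793 to 1086) in 27 of 58 of WT and 1156 (1003 to 1326) in 27 of 35 of naive CD45+. CD8 T-like cells followed with 69.3, 103 and 421. NK-like and Cd7-high cells are separated beyond their intervals in each library.

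Other lymphocytes did not share it. Il17a-type gamma-delta T-like cells had no Xcl1 UMI in 197 Cd226-/-, 110 WT and 108 naive cells, which allows up to 4.08, 7.26 and 4.55 CPM. Innate lymphoid-like cells held 0, 0 and 3.92. Neutrophil-like, monocyte-like, macrophage-like and type 1 dendritic-like cells were all at or under 0.622 CPM. The fibroblast background was 0.601, 0.133 and 5.51 CPM. In Cd226-/- skin 18 of the 22 UMIs behind it came from 1 cell, and in naive CD45+ skin 11 of the 12. In NK-like cells Xcl1 was seen in 88.5%, 65.4% and 97.1% of cells, or 54.2%, 51.1% and 86.1% thinned, at median depths of 4896, 5319.5 and 6132 UMIs. NK-like cells were 0.798%, 1.36% and 1.06% of immune cells and held 30.1%, 31.1% and 77.9% of the immune Xcl1 UMIs. In treated skin a further 27.5% in Cd226-/- and 30.1% in WT lay in the unnamed mixed lymphoid clusters. Xcl1 and Ccl5 shared cells: 12 of 26 NK-like cells held both in Cd226-/- skin, 5 of 26 in WT and 14 of 34 in naive CD45+.

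**Figure D3:**
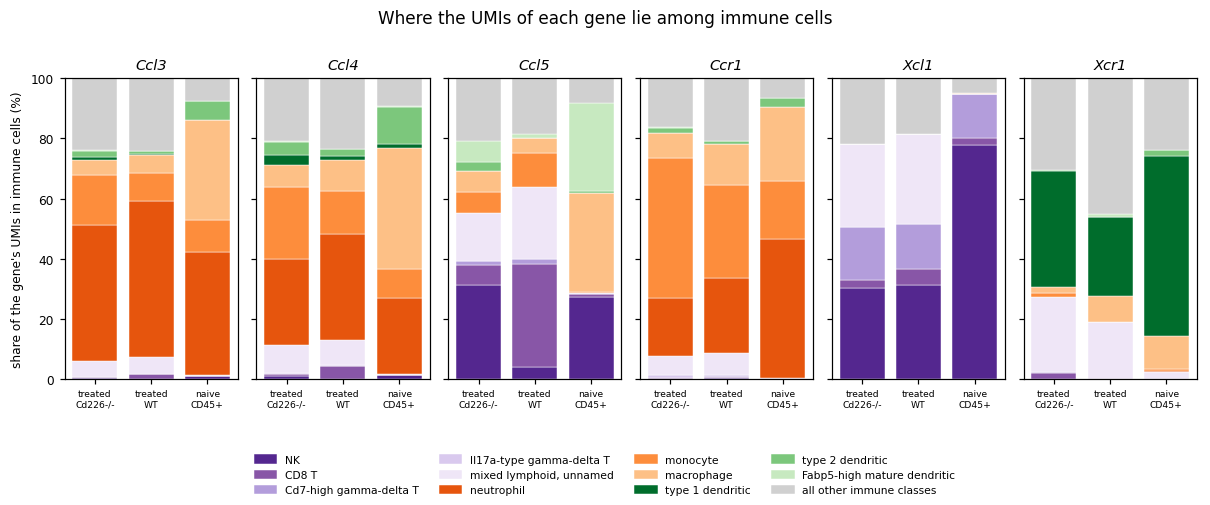
Share of each member's immune UMIs (%) that lies in each cell class, for the 3 libraries rich in immune cells; grey sums the remaining classes. Neutrophil-like cells hold 45.5%, 52.2% and 40.9% of Ccl3 UMIs, and NK-like cells hold 30.1%, 31.1% and 77.9% of Xcl1 UMIs, in treated Cd226-/-, treated WT and naive CD45+ skin.

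Ccr1, the receptor of Ccl3 and Ccl5, was carried by the same myeloid classes that made Ccl3. Neutrophil-like cells had 1956 CPM (1868 to 2047) in Cd226-/- skin, 1790.4 (1688 to 1898) in WT and 1486 (1428 to 1547) in naive CD45+. Monocyte-like cells had 581, 549 and 347, and macrophage-like cells 258, 283 and 68.6. The order neutrophil, monocyte, macrophage held in all 3 libraries beyond the intervals. Macrophage-like cells of naive CD45- skin, at 193, were nearer to the treated cells than to those of naive CD45+. Type 2 dendritic-like cells held 169, 131 and 64.3, whereas type 1 dendritic-like cells held 4.21, 0 and 1.57.

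Among named lymphoid classes of at least 50 cells Ccr1 was highest in the Il17a-type gamma-delta T-like class of treated skin, which held 106 of 164 lymphoid Ccr1 UMIs in Cd226-/- and 33 of 79 in WT skin, against 2 of 12 in naive CD45+. Its level was 144 CPM in 43 of 197 cells of Cd226-/- skin, 79.8 in 15 of 110 cells of WT and 3.04 in 2 of 108 cells of naive CD45+. The naive cells came from a cluster of their own, and no naive cell lay in the cluster that holds most of the treated ones. The unnamed Il13-high lymphocytes were at 145 CPM in 70 Cd226-/- and 139 in 20 WT cells. CD8 T-like cells held 41.6 and 36.0 CPM in Cd226-/- and WT skin, and NK-like cells 7.13, 46.3 and 8.39 in the 3 libraries. Fibroblast-like cells held 2.16, 0.978 and 2.30. Ccl3 and Ccr1 were found together in 227 of 258 neutrophil-like cells of Cd226-/- skin, 142 of 150 of WT and 359 of 517 of naive CD45+.

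Other members of the receptor list had their own pattern. Ccrl2, a non-signalling chemerin receptor, stood at 5459, 5736.5 and 6734 CPM in neutrophil-like cells of the Cd226-/-, WT and naive CD45+ libraries. The scavenging receptor Ackr2, which clears inflammatory CC chemokines, was at 43.4, 34.6 and 28 CPM in fibroblast-like cells.

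Xcr1 marked the type 1 dendritic-like class, although it was used neither to cluster nor to name it. The class held 118 CPM (94.1 to 146) in 33 of 76 cells of Cd226-/- skin, 91.0 (56.3 to 139) in 11 of 27 cells of WT and 211 (187 to 238) in 67 of 84 cells of naive CD45+. The intervals of the 2 treated libraries overlap, and both lie under that of naive CD45+. With cells set by marker transcripts the 3 intervals overlap, at 131 (107 to 158), 155 (112 to 209) and 163 (144 to 184). Thinned to 1000 UMIs, 10.6%, 8.33% and 18.1% of cells held a UMI, against 43.4%, 40.7% and 79.8% unthinned, at median depths of 9469.5, 8001 and 15152.5 UMIs. Fibroblast-like cells had no Xcr1 UMI in the 2723 Cd226-/- and 4032 WT cells, and 1 in the 141 cells of naive CD45+. Macrophage-like cells were at 1.31, 3.17 and 2.76 CPM, and NK-like, Langerhans-like and Il17a-type cells had none.

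The type 1 dendritic-like class held 38.7%, 26.3% and 59.6% of the immune Xcr1 UMIs in the Cd226-/-, WT and naive CD45+ libraries. Much of the rest lay in unnamed clusters: mixed lymphoid clusters held 24.9%, 18.8% and 2.22%, and cycling cells 17.1%, 28.8% and 13.3%. Over all immune cells 89 in Cd226-/- skin, 35 in WT and 120 in naive CD45+ held an Xcr1 UMI. Of these, 25, 8 and 17 also held Ccr1. Xcr1 and Ccl4 shared 25 of 76 type 1 dendritic-like cells in Cd226-/- skin, 5 of 27 in WT and 28 of 84 in naive CD45+. Type 1 dendritic-like cells with Ccl4 numbered 60, 16 and 41 in all, so cells with an Xcr1 UMI did not hold Ccl4 more often than the others.

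Across 37 pairs of a class and a library with at least 50 cells, the genes with the pattern most like each member were ranked among 10860 genes by Pearson's r of log2(CPM + 10). The pairs share libraries and depth, so these values describe likeness only. Ccl3 was most like Plek (0.911), Ccl4 (0.901) and Lilr4b (0.898). Ccl4 was most like Ccl3, Itgb2 (0.859) and Apobr (0.856). Ccl5 was nearest to Ifng (0.755), Gzma (0.731) and Ms4a4b (0.731), none of them close. Ccr1 was most like Rnf149 (0.922), Osm (0.914) and Nlrp3 (0.913), and Xcl1 most like Trat1 (0.985), Tnfsf11 (0.953) and Serp2 (0.951). No NK-like class reached 50 cells, so the Xcl1 likeness rests on the other lymphoid classes. Xcr1 was most like Clec9a (0.938), a receptor of type 1 dendritic cells, then Btla (0.921) and Hepacam2 (0.879). Among members, Ccl3 and Ccr1 stood at 0.81 and Ccl5 and Xcl1 at 0.623, whereas Xcl1 and its receptor gene Xcr1 stood at -0.0475.

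The first comparison sets treated Cd226-/- skin against treated WT skin. In phagocytes the Ccl3, Ccl4 and Ccr1 levels of the 2 libraries were close. The neutrophil-like Ccl3 ratio was 0.939 (0.918 to 0.960), that of Ccl4 1.04 (1.02 to 1.07) and that of Ccr1 1.09 (1.01 to 1.18). None of the 3 members with enough UMIs was called there, while 4.93% of 2088 genes were higher and 15.5% lower. The Ccl3 and Ccl4 ratios of this class turned direction with the processing. In its main treated cluster alone, 186 and 131 cells, Ccl3 was 24059 and 21719.9 CPM and the ratio 1.11. With wider cell filters the Ccl3 ratio was 1.02. Another cluster, neu 0, made up 67 of the 258 Cd226-/- and 16 of the 150 WT cells. Its Ccl3 level in Cd226-/- skin was 6488 CPM, and the part of this make-up in the ratios was not tested.

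In monocyte-like cells the ratios were 1.01 (0.958 to 1.06) for Ccl3, 1.08 (1.05 to 1.11) for Ccl4 and 1.06 (0.998 to 1.13) for Ccr1. Ccl5 was the exception, at 0.137 (0.112 to 0.166) of the WT level, with 23 of 1054 cells against 21 of 403 holding a UMI. Much of it came from few cells, 3 in Cd226-/- and 4 in WT skin, which the interval does not cover. Of 4 members 1 was called lower and none higher, where 5.74% of genes were lower and 4.99% higher. In macrophage-like cells the same gene was lower, at 0.601 (0.476 to 0.758), or 0.420 with the single richest cell of either library left out, while Ccl3 (0.928), Ccl4 (1.00) and Ccr1 (0.911) were not called. That is again 1 of 4 members lower and none higher, with 4.11% of genes lower and 4.89% higher. Monocyte-like cells also differed in other genes of the ligand list. The CCR1 ligands Ccl6 and Ccl9 were higher: Ccl6 was at 2841 CPM in Cd226-/- and 1765 in WT skin, and Ccl9 at 2081 and 1261. Ccl8, in the mouse best known as a ligand of CCR8, was lower, at 85.7 and 150. Of the 7 measured CC chemokines of that list 2 were higher and 2 lower in that class, with a median log2 ratio of 0.11 against 0.05 over all genes.

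Ligand levels summed over lymphoid cells were lower in the Cd226-/- library, but not in each class. Over all lymphoid clusters without mixed markers, Il13-high cells included, 567 Cd226-/- and 375 WT cells, Ccl5 was at 373 and 855 CPM, a ratio of 0.437 (0.399 to 0.477). Xcl1 was at 217 and 363, a ratio of 0.599 (0.528 to 0.679). Ccl4 was at 663 and 1163 (0.570) and Ccl3 at 114 and 276 (0.413). The 26 NK-like cells of each library run the other way by clusters, with the Ccl5, Ccl4 and Ccl3 levels given above. Of the Ccl5 UMIs, NK-like cells held 639 of 799 in Cd226-/- and 126 of 1313 in WT skin, and CD8 T-like cells 130 and 1125. CD8 T-like cells were 98 of the 567 and 117 of the 375 cells, and the part of this make-up in the ratios was not tested. Of 5 measured members 4 were called lower and none higher, against 3.34% of genes lower and 7.08% higher. Ccr1 was on the other side without passing the threshold, at 76.6 and 51.4 CPM (1.49, 1.13 to 1.97). Without its richest cell the Ccl3 ratio was 0.633. With classes set by marker transcripts in place of clusters, Ccl3 (0.748) and Ccl4 (0.985) were no longer called, and Ccl5 (0.398) and Xcl1 (0.664) still were. The 7 neutrophil markers summed to 218 CPM in the Cd226-/- lymphoid cells and 61.2 in the WT ones, with Cxcr2 at 0 in both, and their part in the Ccl3 and Ccl4 values was not tested.

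In CD8 T-like cells Ccl5 was lowest relative to WT, at 0.178 (0.147 to 0.214), followed by Ccl3 at 0.395 (0.316 to 0.492) and Ccl4 at 0.519 (0.471 to 0.571). Xcl1, at 0.675 (0.404 to 1.10), was not called, so 3 of 4 members were lower and none higher, where 7.54% of 2414 genes were lower and 7.75% higher. Under marker gates Ccl5 stayed low, at 467 CPM in Cd226-/- and 2311 in WT cells, while Ccl3 (0.835) and Ccl4 (0.919) were not called. With clusters of a single round, where lymphoid cells were not clustered again, Ccl5 was 0.613. Other type 1 effector genes were lower as well. Gzma, a granzyme, was at 1804 CPM in Cd226-/- and 4613 in WT cells, Gzmb at 726 and 1168, Ifng at 418 and 702 and the perforin gene Prf1 at 30.5 and 79.2. Ctsw was higher, at 629 and 365. Thus 4 of 11 measured genes of that list were lower and 1 higher, with a median log2 ratio of -0.49 against 0.01 over all genes. Transcripts of the 7 neutrophil markers summed to 344 CPM in the Cd226-/- CD8 T-like cells and 54.0 in the WT cells; their part in the Ccl3 and Ccl4 values was not tested, and 2 of 27 and 2 of 58 cells with Ccl4 held 2 or more of those markers.

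Xcl1 differed most in Cd7-high gamma-delta T-like cells, at 0.382 (0.305 to 0.477) of the WT level. The share of these cells with Xcl1 was 28.6% in Cd226-/- and 46.6% in WT skin, or 15.5% and 27.9% thinned, at median depths of 3167 and 2639 UMIs. With the richest cells left out the ratio was 0.469. All 3 measured members were called lower in this class, against 5.55% of genes lower and 8.52% higher, but Ccl5 in WT came from 1 cell and Ccl4 reached 1.11 without its richest cell. The NK-like levels of Xcl1, 1974 and 1951 CPM in 26 cells each, were side by side within their counting intervals, but were 1246 and 1739 with cells set by marker transcripts. Il17a-type gamma-delta T-like cells had more Ccr1 in Cd226-/- skin, at 1.80 (1.21 to 2.75), and more Ccl4, at 2.78 (1.95 to 4.05). In their largest cluster, lym 4, Ccr1 was at 2.09, but Ccl4 had only 11 and 4 UMIs and was no longer called; 177 of the Cd226-/- Ccl4 UMIs lay in cluster lym 6, and 71.8% of all in 1 cell. Over the whole class both measured members were called higher, where 10.3% of genes were higher and 3.19% lower.

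**Figure D4:**
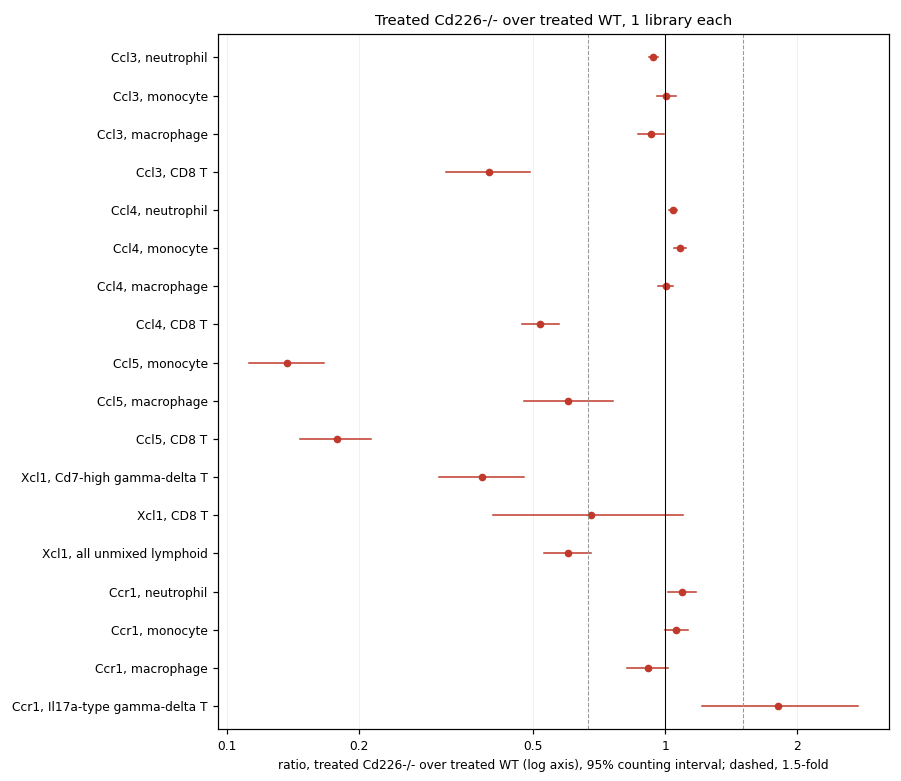
Ratio of treated Cd226-/- to treated WT skin (log axis) for members in the classes the text describes, with 95% counting intervals; dashed lines mark 1.5-fold. The phagocyte ratios of Ccl3, Ccl4 and Ccr1 lie between 0.911 and 1.09, whereas Ccl5 lies at 0.137 in monocyte-like and 0.178 in CD8 T-like cells.

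The second comparison sets each treated library against naive CD45+ skin. Both treated libraries are compared with the same naive library, so their ratios share its counting error, and the naive library also differs in its sort and in its mixed genotypes. In neutrophil-like cells the ratio of Ccl3 was 3.1 (3.02 to 3.17) in Cd226-/- and 3.3 (3.21 to 3.39) in WT skin. The ratio of Ccl4 was 2.20 (2.16 to 2.24) and 2.11 (2.06 to 2.16), and Ccr1, at 1.32 and 1.20, was not called. Of 3 members 2 were higher in each, where 8.43% of genes were higher and 37.1% lower in Cd226-/- and 14.4% and 35.9% in WT skin. Different clusters hold this class in the 2 conditions: cluster neu 2 has 186 Cd226-/- and 131 WT cells but 8 naive ones, while cluster neu 1 has 4, 2 and 354. The 9 macrophage markers summed to 55.9 and 63.3 CPM in the Cd226-/- and WT neutrophil-like cells against 321 in the naive ones, and their part in these ratios was not tested. Scaling by the median of gene ratios moved all neutrophil-like ratios up by 0.37 (log2) in Cd226-/- and 0.33 in WT skin. The genes called higher and lower then made up 17.8% and 19.8% in Cd226-/- and 23.4% and 21.6% in WT skin, Ccl3 stood at 4.00 and 4.13, Ccl4 at 2.84 and 2.64, and Ccr1 passed the threshold at 1.7 and 1.51.

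Early response genes of phagocytes were higher in part in these cells. Of 14 measured, 6 were higher and 2 lower in Cd226-/- and 6 higher and 1 lower in WT skin, with median log2 ratios of 0.11 and 0.18 against -0.37 and -0.32 over all genes. Egr1, a stimulus-induced transcription factor, was at 3242 CPM in Cd226-/- and 3279 in WT skin, against 525 in naive CD45+. Ptgs2, the inducible cyclooxygenase, was at 4523 and 4873 against 2019, and Ier3 at 3894 and 4054 against 1491. Plek, the gene most like Ccl3 across classes, was lower in Cd226-/- skin, at 2146 against 3554. Among the 5 measured CC chemokines of the ligand list, Ccl6 was at 1858 and 1615 against 898, and Ccl8 at 28.5 and 63.3 against 299.

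In monocyte-like cells Ccl3 (0.965 and 0.960 in Cd226-/- and WT skin) and Ccl4 (1.09 and 1.01) were near the naive level. Ccr1 was higher, at 1.67 and 1.58, and so was Ccl5, at 4.58 and 33.4, with 12 UMIs in the naive library. Of 4 members 2 were higher in each and none lower, where 9.02% of genes were higher and 7.52% lower in Cd226-/- and 7.62% and 7.78% in WT skin. With marker gates the Ccl5 ratio of the Cd226-/- library was 0.527. Macrophage-like cells had the largest Ccr1 difference from naive CD45+ among the myeloid classes with values from both treated libraries. It was 3.76 (3.43 to 4.11) in Cd226-/- and 4.13 (3.74 to 4.55) in WT skin. The 85 macrophage-like cells of naive CD45- skin held 193 CPM of Ccr1. That is nearer to the treated 258 and 283 than to the 68.6 of naive CD45+. Ccl4 (1.28 in both, over naive CD45+) was not called in this class. Ccl3, at 1.42 and 1.53, passed the threshold in WT skin, and that ratio was 1.25 with the richest cells left out. Of 5 members 1 was higher and 1, Xcr1 with 4 UMIs, lower in Cd226-/- skin (9.48% of genes higher, 16.7% lower), and 2 were higher and none lower in WT skin (7.41% and 14.7%). Ligand relatives were higher too: Ccl6 at 6895 and 5571 CPM in Cd226-/- and WT skin against 1567, and Ccl9 at 3704 and 2796 against 992. Of 7 measured ligands, 3 were higher in Cd226-/- and 4 in WT skin and none lower, with medians of 0.51 and 0.61 (log2).

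Type 1 dendritic-like cells could be compared in the Cd226-/- library only, since WT had 27 of them. The ratio of Ccl3 was 25.5 (17.2 to 39.2) and that of Ccl4 5.05 (4.68 to 5.45), while Xcr1 was lower, at 0.558 (0.431 to 0.715). That is 2 of 3 members higher and 1 lower, where 8.57% of genes were higher and 10.8% lower. The Ccl3 ratio rests on 27 UMIs in the naive cells, 63.0% of them in 1 cell. It was 62.7 without the richest cells and 4.04 under marker gates, where Xcr1, at 0.799, was not called. The WT cells, at 585 and 2501 CPM for Ccl3 and Ccl4, were near the Cd226-/- ones in summed level only. The median cell held 2.28 Ccl4 UMIs per 10000 in WT and 23.5 in Cd226-/- skin. For Ccl3 the medians were 0 and 1.07, and 3 WT cells held 74.8% of the WT UMIs. Of 10 measured early response genes 9 were higher and none lower, among them Il1b (1964 CPM in Cd226-/- against 536 in naive cells), Ier3 (178 against 36.2) and Zfp36 (1460 against 706). The 12 genes of type 1 dendritic cells differed less: 1, the adhesion gene Cadm1, was lower (40.7 against 122) and Clec9a was at 105.3 against 112. Transcripts of the 7 neutrophil markers summed to 25.3 CPM in the Cd226-/- cells and 20.4 in the naive ones, and Retnlg, Cxcr2 and Mmp9 were at 0 in both.

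Type 2 dendritic-like cells were compared for Cd226-/- skin only, since WT had 49 of them. Ccr1 was higher, at 2.63 (2.11 to 3.29), and Ccl3 (1.31) and Ccl4 (0.938) were not called. Ccl5 was called higher, at 5.91, but 55.2% of its UMIs lay in 1 cell. The ratio was 0.889 with clusters of a single round, where dendritic cells were not clustered again. Of 4 members 2 were higher and none lower, with 8.66% of genes higher and 12.8% lower. Different clusters hold this class: dc 6 has 61 of its 118 Cd226-/- cells and 16 of its 186 naive ones, whereas dc 12 and dc 13 have 18 and 19 Cd226-/- cells against 90 and 55 naive ones.

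Lymphoid cells showed opposite differences for the ligand Xcl1 and the receptor Ccr1. Over all unmixed lymphoid cells Xcl1 was at 217 CPM in Cd226-/- and 363 in WT skin against 900.5 in naive CD45+, ratios of 0.241 and 0.403. Ccr1 was at 76.6 and 51.4 against 8.03, ratios of 9.54 and 6.40. Ccl5 was lower in Cd226-/- skin (0.646) and, at 1.48, not called in WT skin, while Ccl3 and Ccl4, at 0.707 and 1.13, were not called in Cd226-/- skin and were higher, at 1.71 and 1.97, in WT skin. Of 5 members, 1 was higher and 2 lower in Cd226-/- skin (12.9% of genes higher, 12.5% lower), and 3 higher and 1 lower in WT skin (10.9% and 15.6%). Without its richest cell the WT Ccl3 ratio was 1.25, and the Cd226-/- Ccl5 ratio was 0.756. The make-up of the lymphoid cells differed beside these values: NK-like cells were 26 of 567 in Cd226-/-, 26 of 375 in WT and 34 of 248 in naive CD45+ skin, and the part of this in the Xcl1 ratios was not tested.

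Within single lymphoid classes the treated and naive values could be set side by side. NK-like Xcl1 had a median per cell of 6.95 UMIs per 10000 in Cd226-/- and 9.73 in WT skin against 36.5 in naive CD45+, a difference between treated and naive cells that the WT level by marker transcripts, given above, did not show. In Il17a-type gamma-delta T-like cells Ccr1 was higher in Cd226-/- skin, at 47.5 (12.8 to 397), and so was Ccl4, at 18.7. The Ccr1 ratio has only 2 naive UMIs behind it. Both measured members were higher there, where 16.9% of genes were higher and 18.6% lower. In WT skin neither had the 50 UMIs needed, so no member was called, where 15.2% of genes were higher and 23.9% lower by class totals and 19.1% and 18.7% by the median of gene ratios, which moved all ratios by 0.129 (log2).

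**Figure D5:**
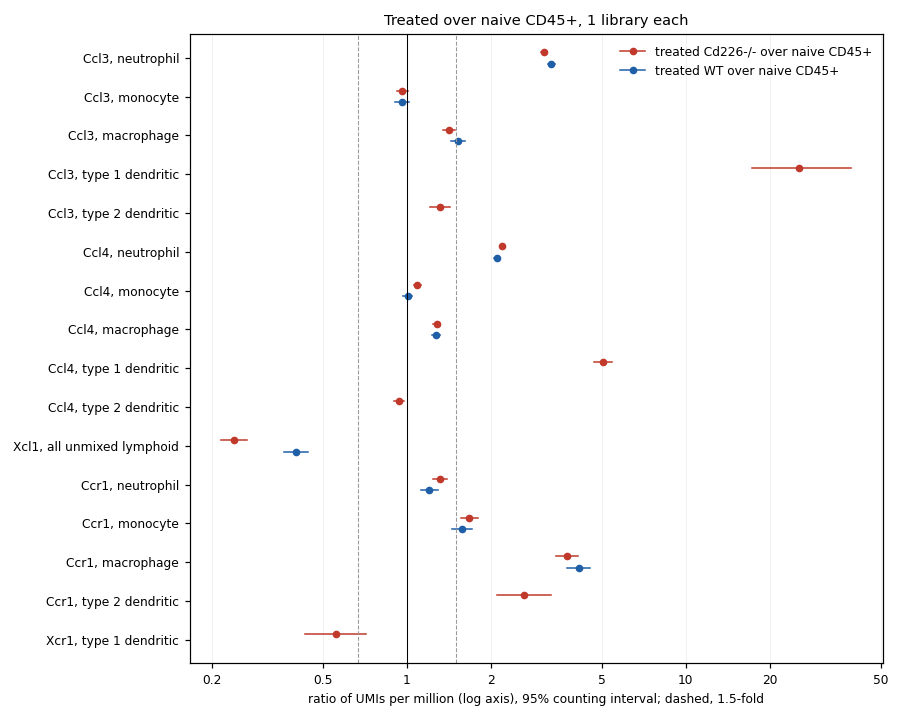
Ratio of each treated library to naive CD45+ skin (log axis) for members in the classes the text describes, with 95% counting intervals; dashed lines mark 1.5-fold. Neutrophil-like Ccl3 lies at 3.1 and 3.3 and macrophage-like Ccr1 at 3.76 and 4.13, while lymphoid Xcl1 lies at 0.241 and 0.403 in Cd226-/- and WT skin.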

How the data were processed

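The values analysed are UMI counts per gene and cell, which the authors deposited as 1 matrix per library. Per the submitters' processing notes they were made with Cell Ranger 3.1.0 against mm10. Droplet barcodes with free RNA, uneven capture and the sort set how far a count stands for a cell's own transcripts. Cells with at least 500 genes, 1000 UMIs and at most 10% mitochondrial UMIs were kept. Doublets were called with the Scrublet method in scanpy 1.11.5 and left out: 161 cells in Cd226-/-, 170 in WT, 143 in naive CD45+ and 602 in naive CD45-. In naive CD45+ the automatic threshold marked 0.256% of cells and was replaced by a fixed cut on the highest doublet scores. That cut marked 4.07% of cells, against 2.41% in Cd226-/- and 2.36% in WT by the automatic threshold. Cells of all libraries were clustered together, without the members and the other genes of the ligand and receptor lists. Other chemokine and chemokine receptor genes were kept. Clusters with Ptprc in at least 40% of cells were taken as immune. Of these, the lymphoid, dendritic, neutrophil, mast and cycling clusters were clustered again. The monocyte-like and macrophage-like classes are clusters of the first round. Classes were named from marker lists. The rebuilt names need not match the study's own.

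Counts were summed per class and library and divided by the class total. Intervals are exact Poisson or binomial. A count of 0 was given the level that 3 counts allow. Ratios needed at least 50 cells in both libraries, and calls 1.5-fold and 50 UMIs. No test was run, since each group is 1 library of pooled mice. Only the ratio and call steps were run on simulated data with known folds. Those data were Poisson class sums without spread between cells, so they do not cover UMIs gathered in single cells. Doublet calling, clustering and naming were not part of that run. Members, pathway lists and marker lists were chosen with earlier results of these data known. Genes named beyond them are the 3 most like each member by the correlation described in the text, among genes with at least 500 UMIs. Alternatives were wider cell filters, doublets kept, single-round clusters, marker gates and the median of gene ratios. Further ones were thinning, a list minimum of 1 UMI and leaving out the richest cell. Single-round clusters came from the first round at a higher resolution and took the most common class of their cells. Lymphoid, dendritic, neutrophil and mast cells were not clustered again there. Promoter windows come from RefSeq, and Ccl4 and Ccl5 have none here. Clusters came from igraph 0.11.9 and scikit-learn 1.9.0, and intervals from scipy 1.17.1, under Python 3.11.15.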

Additional observations from a re-analysis of the deposited data

How the results depend on the processing

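No paired analysis was possible because each group is 1 library and replicate numbers pair nothing. Of 103 ratios of members, wider cell filters (2058 cells added) reversed none of those called, keeping doublets (1076 cells added) none, and the median of gene ratios none. Single-round clusters (44 clusters) reversed 3, marker gates 1 and leaving out the richest cell 3. Of the ratios called in each case, 62 of 63, 58 of 63, 60 of 63, 51 of 59, 23 of 31 and 52 of 61 kept their call, in the same order. For 55 pairs of a ratio and a setting no value could be had, mostly because marker gates define fewer classes. The single-round clusters were not clustered again, so they need not split lymphoid and dendritic cells more finely than the main classes. Type 1 dendritic-like cells had no value with them. Ccl3 in neutrophil-like cells, Cd226-/- over WT (0.939), was 1.02 with wider filters, 0.867 with single-round clusters and 0.858 with marker gates. It was 0.976 with the median of gene ratios and 1.11 in cluster neu 2 alone, an alternative chosen after seeing the data. Ccl4 there (1.04) was 1.02, 0.967, 0.967, 1.08 and 1.28 in the same settings. Ccl3 in neutrophil-like cells of Cd226-/- over naive skin (3.1) was 3.61, 2.96, 3.26 and 4.00 in the first 4 of these. For WT over naive skin (3.3) it was 3.55, 3.41, 3.80 and 4.13, and 3.42 without the richest cell. With single-round clusters and with marker gates, Ccl5 in monocyte-like cells, Cd226-/- over WT (0.137), was 0.250 and 0.253. In these settings Ccr1 in macrophage-like cells was 2.97 and 5.32 for Cd226-/- over naive (3.76). For WT over naive (4.13) it was 3.36 and 4.71. In CD8 T-like cells, Cd226-/- over WT, Ccl3 (0.395) was 0.608 and 0.835 and Ccl4 (0.519) was 0.724 and 0.919 in these settings. Ccl5 in those cells (0.178) was 0.613 with single-round clusters. Xcr1 in type 1 dendritic-like cells, Cd226-/- over naive (0.558), was 0.799 with marker gates. Over all lymphoid cells, Ccl5 for Cd226-/- over WT (0.437) was 0.398 with marker gates. With single-round clusters Xcl1 there was 0.528 for Cd226-/- over WT (0.599) and 0.452 for WT over naive (0.403). With marker gates it was 0.278 for Cd226-/- over naive (0.241). In cluster lym 4 alone, also chosen after seeing the data, Ccl4 in Il17a-type cells, Cd226-/- over WT (2.78), was 1.82 and lost its call. Reversed with marker gates was Ccl5 in monocyte-like cells, Cd226-/- over naive (4.58), at 0.527. With single-round clusters Ccl5 in type 2 dendritic-like cells, Cd226-/- over naive (5.91), was reversed at 0.889. For Cd226-/- over WT, Ccl4 in Ly75-high (0.590) and Cd7-high cells (0.157) was reversed at 1.24 and 1.5 with single-round clusters. Without the richest cell these ratios were 4.18 and 1.11, reversed as well. Ccl5 in fibroblast-like cells, WT over naive (0.444), was 3.98 without the richest cell. The cause was not tested in any of these cases, beyond the richest cells that were left out. NK-like and Fabp5-high mature dendritic-like cells were too few for ratios.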
